A study of Mus musculus with 15 samples.

Results

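The motile cilium structural genes described here are 52 listed genes for the parts of the axoneme, the moving core of a beating cilium, and for the assembly of its dynein motors. A gene was taken in through the RefSeq accession of its probe on the array, and it was represented by its brightest probe among those well above background in 3 or more samples of some group. Of the 52 genes, 46 had a probe matched by accession and 44 were tested, among 25251 genes and unnamed transcripts tested in all. Dnah3, Dnah12, Ccdc114, Armc4, Ccdc40 and Lrrc23 had no matched probe and were not analysed here. Dnah9, an outer arm heavy chain, was well above background in 5 of 15 samples, and Spag6, of the central pair, in 0 of 15 on either of its 2 probes, so both stayed below the filter. Of the 44 tested genes 43 were well above background in all 15 samples, the exception being Dnah1.

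Motile cilia cover the multiciliated cells that line the airways of the lung, and their beating carries mucus and trapped particles towards the throat. The axoneme is built from outer doublet microtubules around a central pair. Rows of outer and inner dynein arms on the doublets generate the sliding force, radial spokes and the nexin-dynein regulatory complex pass control signals to the arms, and inner proteins stabilise the doublet wall. The transcription factor Foxj1 and the RFX factors are known to switch on these genes when a cell becomes multiciliated.

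Lung RNA of female C57BL/6 mice aged 7 to 8 weeks was measured on 2-colour Agilent arrays in 15 samples of 4 groups, 24 h after the last exposure. A group of 4 received rod-like carbon nanotubes (rCNT) by aspiration, at 10 µg a day on 4 days, given in 50 µl of saline buffered with phosphate (PBS), and a group of 4 received PBS alone in the same way. A group of 3 inhaled an rCNT aerosol of 6.2 to 8.2 mg/m3 for 4 h a day on 4 days, and a group of 4 was untreated. The scans of the inhaled and untreated samples are named as pools and those of the aspiration samples are not, and the labels do not give the mice behind a sample, so p-values describe the spread among samples, and that spread may be technical. Untreated replicate 1 is titled as a PBS aspiration, but every other label of it says untreated, and it was kept in the untreated group. All 8 aspiration samples lay on slide 1, while the inhaled and the untreated samples were spread over slides 2 and 3. Between 54.6% and 64.7% of the spots of a sample were well above background, and the number of arrays limits the precision.

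The DNA before the start site of 6 members is shown first, as examples of a letter pattern of the RFX or forkhead factors. The RNA of all 6 rose with inhalation, as it did in 41 of the 44 tested members. Mlf1, with a forkhead core 116 bases before the start and a rise of 0.81, is not printed. Promoters of 43 members were found in the RefSeq table of the build GRCm38.p6. The X-box, the pattern read by RFX factors, was searched as GTNNCCNNNGNAAC on both strands in the 250 bases before the start. It was present in 7 of 43 members (16.3%) and in 477 of 27025 promoters of the table (1.77%). The 7 were Ccdc114, Ccdc151, Cfap44, Cfap45, Hydin, Spag16 and Tekt4. The forkhead core GTAAACA, searched in the same way, was present in Ak7, Cfap43 and Mlf1, 3 of 43 members (6.98%), against 836 of 27025 promoters (3.09%). The patterns do not overlap in any printed stretch, and a match describes letters, not a bound site. Each line gives the 120 bases before the start, 5′ to 3′ on the strand of the gene, with the matched pattern in capitals.
Ccdc151 (chr9:22002635-22002754, minus strand, X-box): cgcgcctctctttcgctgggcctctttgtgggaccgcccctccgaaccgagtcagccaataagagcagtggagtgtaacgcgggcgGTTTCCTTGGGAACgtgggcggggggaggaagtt
Cfap45 (chr1:172521010-172521129, plus strand, X-box): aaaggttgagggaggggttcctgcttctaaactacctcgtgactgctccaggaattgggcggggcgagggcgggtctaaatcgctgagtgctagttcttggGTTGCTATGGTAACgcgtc
Cfap44 (chr16:44394679-44394798, plus strand, X-box): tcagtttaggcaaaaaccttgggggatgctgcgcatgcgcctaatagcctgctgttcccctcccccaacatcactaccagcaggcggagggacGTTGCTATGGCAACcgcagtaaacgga
Hydin (chr8:110266857-110266976, plus strand, X-box): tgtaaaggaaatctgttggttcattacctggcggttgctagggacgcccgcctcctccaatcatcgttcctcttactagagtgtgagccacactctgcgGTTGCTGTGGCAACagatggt
Spag16 (chr1:69826850-69826969, plus strand, X-box): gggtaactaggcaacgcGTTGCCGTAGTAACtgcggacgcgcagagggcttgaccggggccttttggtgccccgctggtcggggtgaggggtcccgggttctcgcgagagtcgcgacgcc
Cfap43 (chr19:47837362-47837481, minus strand, forkhead core): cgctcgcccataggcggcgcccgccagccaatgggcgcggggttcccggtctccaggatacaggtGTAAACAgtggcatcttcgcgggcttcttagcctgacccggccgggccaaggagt
In Ccdc151, Cfap45, Cfap44 and Hydin the X-box began 34, 19, 27 and 21 bases before the start, and in Spag16 it began 103 bases before it. The inhaled minus untreated log2 differences of these 5 genes ran from 0.58 in Spag16 to 1.74 in Ccdc151 and Cfap45, inside the range of the members without a match.

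Nearly the whole set was higher after inhaled rCNT. Of the 44 tested members 41 were higher than in the untreated samples, 1 was lower and 2 did not pass (limma, adjusted p below 0.05), against 60.8% of all tested genes called in either direction, 28.4% higher and 32.5% lower. The median log2 difference of the members was 1.07, a little over 2-fold, against -0.020 for all tested genes. It was at least 2-fold in 28 members, against 4.16% of all tested genes. In 40 members every inhaled sample lay above every untreated sample, and in 1 member every inhaled sample lay below them, against 25.7% and 29.1% of all tested genes. Summed over the members, the normalised intensity was 60522 to 67216 in the untreated samples and 120999 to 157375 in the inhaled ones. In RNA of whole lung, more or fewer cells of a type and more or less RNA per cell cannot be told apart.

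Fewer of these genes changed after aspirated rCNT, and by less. Of the 44 members 14 rose, 6 fell and 24 did not pass against aspirated PBS, while 47.2% of all tested genes were called, 20.6% higher and 26.5% lower. The members' median log2 difference was 0.15, with a range from -0.99 to 0.75, against -0.044 over all tested genes. Groups did not overlap in 11 members that were higher and in 6 that were lower, against 19.2% and 23.3% of all tested genes. A rise of at least 2-fold was seen in 0 members, against 2.87% of all tested genes, and the largest, in Zmynd10, was 0.75 on the log2 scale. The share of members called higher, 14 of 44, was thus closer to the share over all genes than after inhalation. The count of members that rose was 22 with cyclic loess normalisation or with array weights.

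The difference of the effects, inhalation against its untreated control minus aspiration against its PBS control, was above 0 and past the threshold in 42 of 44 members, against 28.5% of all tested genes above 0, 28.4% below 0 and 57% in either direction. Its median was 1.01 on the log2 scale. Dnah1 and Spef2 did not pass, at 0.015 (SE 0.11, limma adjusted p = 0.923) and 0.27 (SE 0.20, limma adjusted p = 0.261). By pair of calls, 14 members rose after both exposures, and 22 rose after inhalation and did not pass after aspiration. A further 5 rose after inhalation and fell after aspiration, and Tppp3 fell after both. These pairs of calls were not counted over all tested genes. Of those genes 28.4% rose and 32.5% fell after inhalation, and 20.6% rose and 26.5% fell after aspiration. Across the 44 members the log2 differences of the planned comparisons, which share no samples, correlated at r = 0.48 and rho = 0.44, as a description over genes that share arrays, probes and 1 fitted model. With median centring the difference of Tppp3 went from 0.51 to -0.027 and did not pass. Route, slide and kind of control cannot be told apart in this difference.

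**Figure D1:**
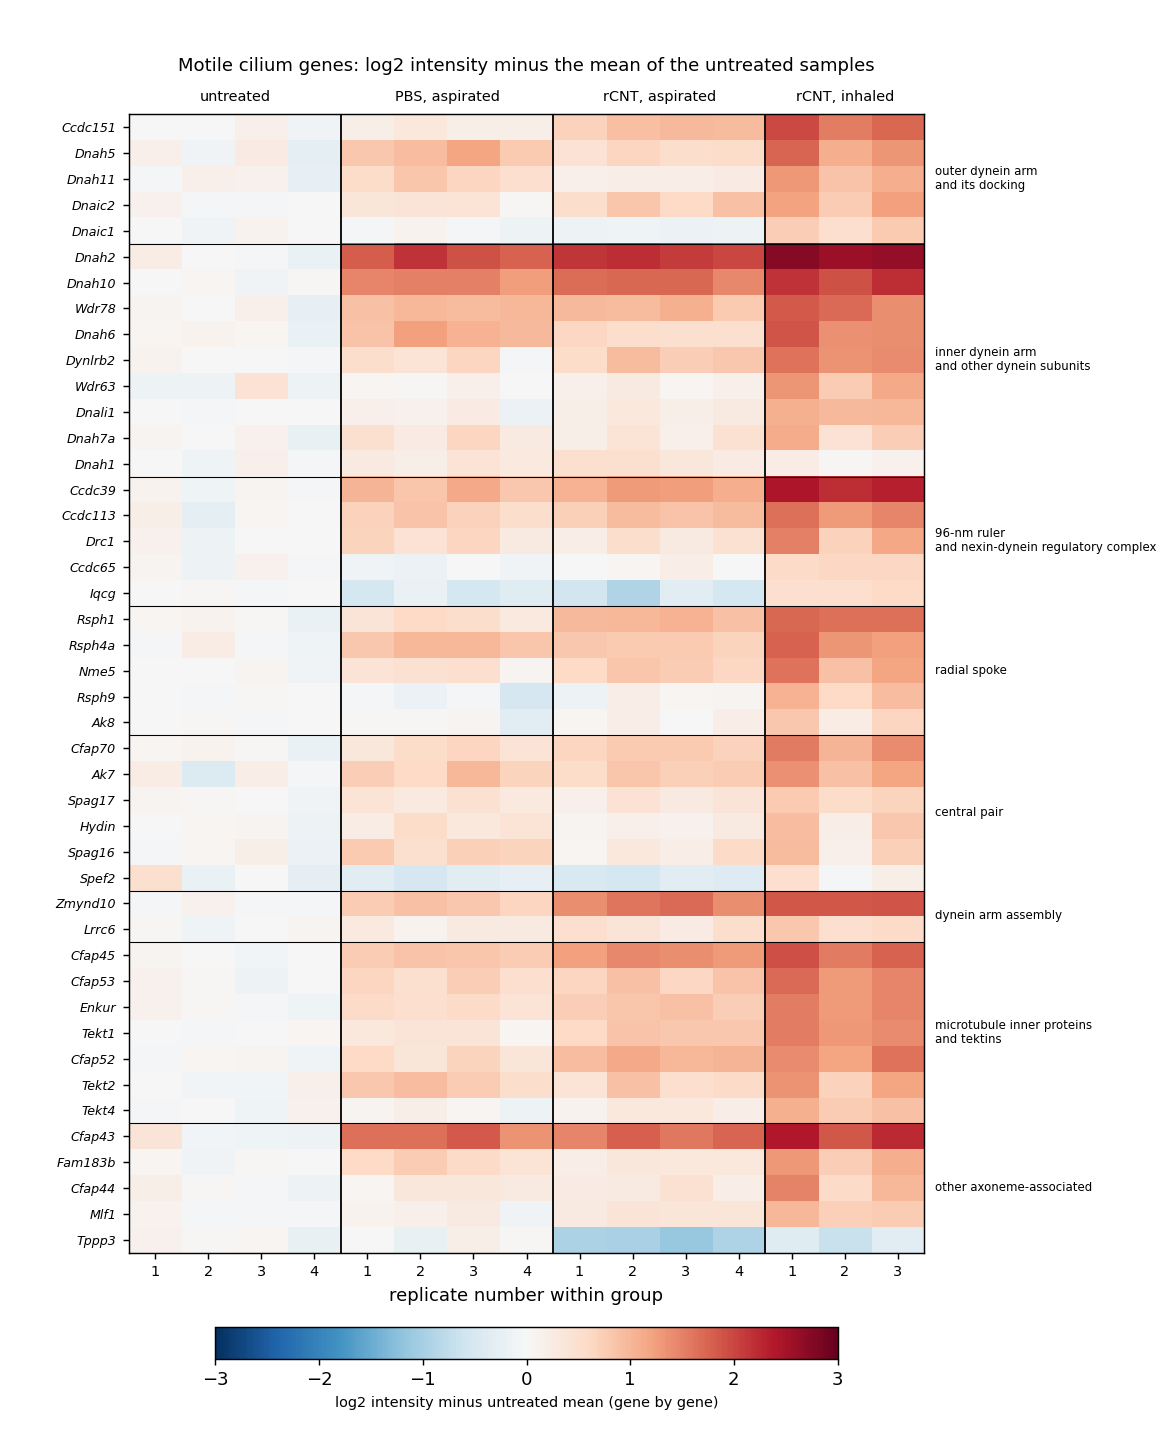
Log2 intensity of the 44 tested members in each of the 15 samples, minus the gene's mean over the untreated samples, ordered by the part of the axoneme and then by the inhalation difference. Columns are replicates within the 4 groups; red is higher and blue lower. The 3 inhaled columns are red in nearly every line, the aspirated columns of both kinds are paler, and Tppp3 at the bottom is blue in both rCNT groups.

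The order of the groups was much the same from member to member. The inhaled group had the highest mean in 41 of 44 members and the untreated group the lowest in 37. In 32 members all inhaled samples lay above all 12 others. These counts of order were not taken over all tested genes. Of those genes 25.7% had every inhaled sample above every untreated sample. The mean over members of the log2 intensity was 9.47, 9.38, 9.44 and 9.32 in untreated replicates 1 to 4, 9.88, 9.91, 9.97 and 9.76 in the PBS replicates, 9.88, 10.03, 9.96 and 9.97 in the aspirated rCNT replicates, and 10.76, 10.36 and 10.59 in the inhaled replicates. The aspirated rCNT and PBS samples overlapped on this mean and lay between the untreated and the inhaled samples. Inhaled replicate 2 was the lowest of the 3 inhaled samples in 39 of 44 members and replicate 1 the highest in 36. The SD of a member had a median of 0.22 in the inhaled group and of 0.11 to 0.14 in the other groups.

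**Figure D2:**
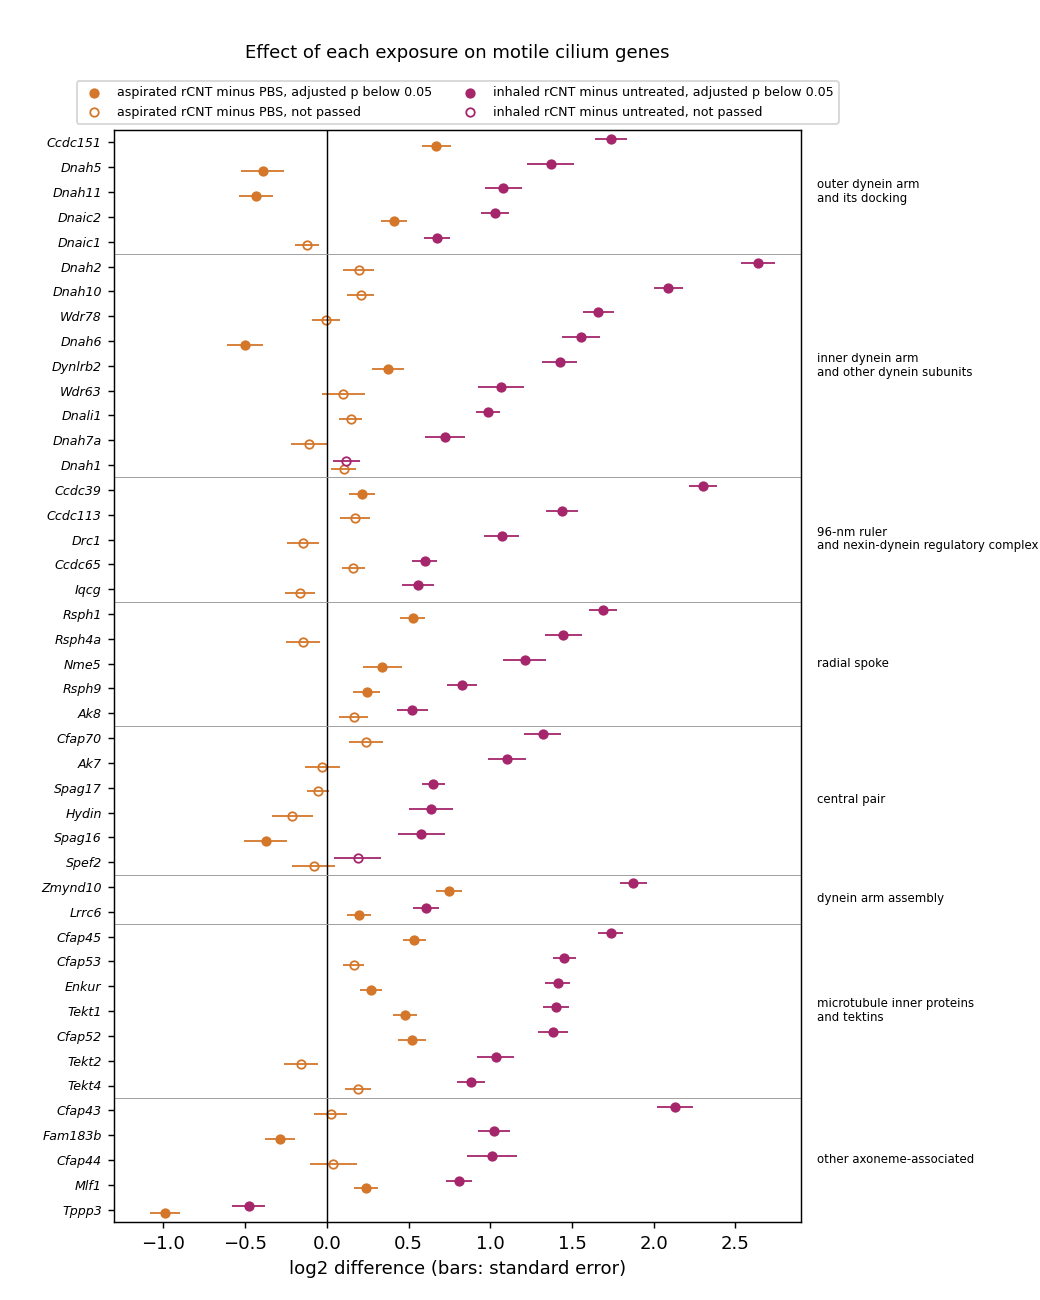
Log2 difference of each tested member, with its standard error, for aspirated rCNT minus PBS (orange) and inhaled rCNT minus untreated (purple), grouped by the part of the axoneme; filled points passed an adjusted p of 0.05. The purple points lie to the right of the orange ones for every gene (for Tppp3 not with median centring), with Dnah1 nearly level, and the orange points straddle 0.

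Among the outer arm genes, which drive the beat, all 5 tested rose after inhalation, with a median log2 difference of 1.08. After aspiration the 5 split: Ccdc151 and Dnaic2 rose, while the heavy chains Dnah5 and Dnah11 fell. Beside the counts by part of the axoneme, here and below, 28.4% of all tested genes rose and 32.5% fell after inhalation. The shares after aspiration were 20.6% and 26.5%. Dnah5 measured 9.55, 9.29, 9.66 and 9.10 in the untreated samples, 10.21, 10.32, 10.59 and 10.19 with PBS, 9.83, 10.04, 9.92 and 9.96 with aspirated rCNT and 11.14, 10.50 and 10.73 with inhaled rCNT (log2 intensity). The inhaled samples had the highest mean, with replicate 2 inside the PBS range, and all PBS samples lay above all untreated samples. Dnah5, a motor heavy chain of the outer arm, was 1.37 (SE 0.14, limma adjusted p = 7.96e-07) higher after inhalation, and -0.39 (SE 0.13, limma adjusted p = 0.0232) against PBS after aspiration. That fall of Dnah5 lost its call with median centring, at -0.38 (limma adjusted p = 0.0534), and without aspirated rCNT replicate 1 or 4 or PBS replicate 2 or 3, at -0.38 to -0.32 (0.0531 to 0.0844).

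The log2 intensity of Dnah11 was 8.44, 8.61, 8.60 and 8.23 in the untreated samples, 9.03, 9.31, 9.10 and 8.97 in the PBS samples, 8.62, 8.67, 8.67 and 8.71 in the aspirated rCNT samples and 9.76, 9.32 and 9.55 in the inhaled samples. The aspirated rCNT samples lay below all PBS samples, with a difference of -0.43 (SE 0.10, limma adjusted p = 0.00241), and the inhaled samples lay above all others. Dnah11, the partner heavy chain nearer to the base of the cilium, gained 1.08 (SE 0.11, limma adjusted p = 6.29e-07) with inhalation. The docking protein Ccdc151, which fixes outer arms to the doublet, rose in both comparisons, by 1.74 (SE 0.099, limma adjusted p = 1.10e-09) after inhalation and 0.67 (SE 0.091, limma adjusted p = 1.71e-05) after aspiration. Untreated samples had Ccdc151 at a log2 intensity of 8.73, 8.73, 8.88 and 8.62, PBS samples at 8.91, 9.06, 8.92 and 8.92, aspirated rCNT samples at 9.44, 9.64, 9.72 and 9.68 and inhaled samples at 10.71, 10.28 and 10.46. Every aspirated rCNT sample exceeded every PBS sample, and every inhaled sample exceeded both. Of the intermediate chains, Dnaic2 rose by 1.03 after inhalation and 0.41 after aspiration, and Dnaic1 rose by 0.67 after inhalation and had a difference of -0.12 after aspiration, which did not pass.

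The inner arms shape the bend of the cilium, and 8 of 9 tested genes of this group rose after inhalation, with a median of 1.43. Dnah2, a heavy chain of the 2-headed inner arm, had the largest inhalation difference of all members, 2.64 (SE 0.10, limma adjusted p = 2.56e-11). For Dnah2 the log2 intensities were 8.73, 8.50, 8.47 and 8.32 untreated, 10.33, 10.67, 10.42 and 10.28 with PBS, 10.65, 10.71, 10.60 and 10.52 with aspirated and 11.24, 11.06 and 11.13 with inhaled rCNT. Its groups stepped up from untreated to PBS, aspirated rCNT and inhaled rCNT, but PBS and aspirated rCNT overlapped, with a difference of 0.19 (SE 0.095, limma adjusted p = 0.108). Most of the distance from the untreated samples was also present in PBS alone, at 1.92 (SE 0.095, limma adjusted p = 3.35e-10).

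Log2 intensities of Dnah10 were 9.24, 9.32, 9.15 and 9.30 without treatment, 10.72, 10.77, 10.76 and 10.51 with PBS, 10.94, 10.97, 10.98 and 10.70 with aspirated rCNT and 11.41, 11.18 and 11.47 with inhaled rCNT. Dnah10, the partner of Dnah2 in that arm, had the same order of groups, and only its PBS and aspirated rCNT samples overlapped. The inhalation difference was 2.09 (SE 0.090, limma adjusted p = 7.56e-11). The second Dnah10 probe that passed the filter, which was dim at a log2 level of 6.48 to 6.71 by group, gave a difference of 0.27, in the same direction but far smaller. Wdr78, an intermediate chain of the same arm, behaved likewise: its brightest probe gave 1.66 (SE 0.096, limma adjusted p = 1.26e-09) and its dim second probe 0.37. Wdr78 measured 10.35, 10.28, 10.41 and 10.03 in the untreated samples, 11.15, 11.26, 11.21 and 11.26 with PBS, 11.25, 11.22, 11.33 and 11.06 with aspirated rCNT and 12.10, 11.96 and 11.67 with inhaled rCNT (log2 intensity). The PBS and aspirated rCNT samples of Wdr78 were level, at a difference of -0.0050 (SE 0.088, limma adjusted p = 0.97), and both lay above all untreated and below all inhaled samples.

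The log2 intensity of Dnah6 was 11.38, 11.43, 11.39 and 11.12 in the untreated samples, 12.19, 12.55, 12.37 and 12.29 in the PBS samples, 11.94, 11.85, 11.80 and 11.81 in the aspirated rCNT samples and 13.21, 12.70 and 12.71 in the inhaled samples. In Dnah6, an inner arm heavy chain, the aspirated rCNT samples were all below the PBS samples, by -0.50 (SE 0.11, limma adjusted p = 0.00123), and the inhaled samples above them. Its inhalation difference was 1.55 (SE 0.12, limma adjusted p = 2.27e-08). Dynlrb2, a light chain of the roadblock family, rose in both, by 1.43 (SE 0.11, limma adjusted p = 1.81e-08) after inhalation and 0.38 (SE 0.097, limma adjusted p = 0.00472) after aspiration. Untreated samples had Dynlrb2 at a log2 intensity of 13.29, 13.18, 13.18 and 13.14, PBS samples at 13.72, 13.60, 13.85 and 13.17, aspirated rCNT samples at 13.76, 14.15, 13.93 and 14.00 and inhaled samples at 14.82, 14.54 and 14.61. PBS replicate 4 fell among the untreated samples, and the inhaled samples of Dynlrb2 were the highest. For Dnah1 the log2 intensities were 6.57, 6.43, 6.70 and 6.53 untreated, 6.82, 6.72, 6.96 and 6.86 with PBS, 7.04, 7.03, 6.91 and 6.81 with aspirated and 6.78, 6.58 and 6.68 with inhaled rCNT. Dnah1 overlapped between untreated and inhaled samples, at 0.12 (SE 0.083, limma adjusted p = 0.233), and its probe was well above background in 1 of 4 untreated and 2 of 3 inhaled samples.

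The other inner arm genes rose after inhalation and did not pass after aspiration. Dnali1, a light chain, rose by 0.99 and Wdr63, an intermediate chain, by 1.06, and a second Wdr63 probe gave 1.43. Dnah7a rose by 0.72, and its other probes gave 0.74 and 0.51. The near-identical copies Dnah7b and Dnah7c may share its probes, so this value is uncertain as to the gene. Set by subunit type, a split made after the values were seen, 3 of 7 heavy chains fell after aspiration and 4 did not pass, at a median of -0.11, while 2 of 6 intermediate and light chains rose, at a median of 0.12. Over all tested genes 26.5% fell and 20.6% rose, so counts this small do not set the subunit types apart. The fall of Dnah5 lost its call in some alternatives, as given above. In PBS against untreated samples the medians were 0.93 for heavy chains and 0.19 for the others, on brightest probes. Other probes gave 0.031 in Dnah10 and 0.13 and 0.14 in Dnah7a, below the 1.43 and 0.41 of the brightest ones. They gave 0.27 in Wdr78, against 0.95, and 0.61 in Wdr63, against 0.055.

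Ccdc39 forms the ruler that sets the spacing of arms and spokes along the doublet, and it had the second largest inhalation difference, 2.30 (SE 0.085, limma adjusted p = 1.48e-11). Log2 intensities of Ccdc39 were 7.51, 7.27, 7.49 and 7.34 without treatment, 8.42, 8.25, 8.55 and 8.20 with PBS, 8.45, 8.69, 8.65 and 8.49 with aspirated rCNT and 9.82, 9.61 and 9.74 with inhaled rCNT. Every inhaled sample of Ccdc39 lay more than 2 log2 units above every untreated sample, and the aspirated rCNT and PBS samples overlapped between them, at 0.21 (SE 0.078, limma adjusted p = 0.0341). The other 4 tested genes of the ruler and nexin-dynein group also rose after inhalation, with Ccdc113 at 1.44, Drc1 at 1.07, Ccdc65 at 0.60 and Iqcg at 0.56. Their aspiration differences, which did not pass, ran from -0.16 in Iqcg to 0.17 in Ccdc113, and of the 4 only Ccdc65, at 0.16, had an unadjusted p below 0.05 in limma. Of the other Ccdc65 probes one gave 0.64 after inhalation and the other 0.038 with a standard error of 0.80.

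Radial spokes connect the doublets with the central pair, and all 5 tested spoke genes rose after inhalation, with a median of 1.21. Rsph1, of the spoke head, rose after both exposures. Rsph1 measured 11.14, 11.17, 11.12 and 10.88 in the untreated samples, 11.47, 11.67, 11.61 and 11.37 with PBS, 12.06, 12.07, 12.13 and 11.96 with aspirated rCNT and 12.81, 12.73 and 12.74 with inhaled rCNT (log2 intensity). The 4 groups of Rsph1 did not overlap at any step from untreated to PBS, aspirated and inhaled rCNT. The differences were 1.69 (SE 0.084, limma adjusted p = 2.74e-10) after inhalation and 0.53 (SE 0.077, limma adjusted p = 3.74e-05) after aspiration, and the other Rsph1 probe gave 0.99 and 0.48. Nme5 rose by 1.21 and 0.34 in the same comparisons, with 0.59 and 0.33 on its other probe, and Rsph9 by 0.83 and 0.25. Rsph4a rose by 1.45 after inhalation and had a difference of -0.15 after aspiration, which did not pass. The log2 intensity of Ak8 was 9.25, 9.26, 9.18 and 9.24 in the untreated samples, 9.28, 9.26, 9.32 and 8.92 in the PBS samples, 9.30, 9.44, 9.25 and 9.44 in the aspirated rCNT samples and 10.03, 9.45 and 9.89 in the inhaled samples. Ak8, an adenylate kinase of the axoneme, had the smallest called rise, 0.52 (SE 0.095, limma adjusted p = 0.000181), and its untreated and inhaled samples still did not overlap.

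The central pair sits in the middle of the axoneme, and its genes had the lowest median of all groups after inhalation, 0.65, with 5 of 6 tested genes higher. They were also the dimmest group. Their mean log2 intensity was 7.41 to 7.69 in untreated samples, against 8.20 to 10.64 in the other parts of the axoneme. The part of low signal in the low median was not tested. Cfap70 rose by 1.32, Ak7 by 1.10, Spag17 by 0.65 and Hydin by 0.64. Untreated samples had Spag16 at a log2 intensity of 7.26, 7.38, 7.51 and 7.15, PBS samples at 8.11, 7.80, 8.04 and 7.99, aspirated rCNT samples at 7.39, 7.63, 7.53 and 7.90 and inhaled samples at 8.28, 7.47 and 8.05. Inhaled replicate 2 of Spag16 lay inside the untreated range, and its inhalation difference was 0.58 (SE 0.14, limma adjusted p = 0.00238). In the aspiration comparison Spag16 fell by 0.37 on the log2 scale (adjusted p = 0.0288), while its other probe gave 0.057, and the call was lost at -0.56 (0.0559) with the processed signal and at -0.16 (0.173) with the mean over probes. Leaving out any 1 of the 4 aspirated rCNT replicates except replicate 4, or PBS replicate 1 or 4, also ended it, at -0.38 to -0.33 and adjusted p-values from 0.0514 to 0.0821. For Spef2 the log2 intensities were 7.87, 7.20, 7.38 and 7.11 untreated, 7.05, 6.89, 7.08 and 7.14 with PBS, 6.92, 6.86, 7.05 and 6.99 with aspirated and 7.90, 7.34 and 7.56 with inhaled rCNT. Spef2 overlapped between untreated and inhaled samples, at 0.19 (SE 0.15, limma adjusted p = 0.279), and with the slide as a block or without untreated replicate 1 it passed, at 0.36 and 0.35 (limma, adjusted p = 0.0188 and 0.0214).

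Dynein arms are put together in the cytoplasm before transport into the cilium, and both tested assembly genes of the set rose after both exposures. Zmynd10 had the largest rise of all members after aspiration. Log2 intensities of Zmynd10 were 9.15, 9.32, 9.11 and 9.14 without treatment, 9.95, 10.06, 9.98 and 9.83 with PBS, 10.57, 10.78, 10.87 and 10.59 with aspirated rCNT and 11.04, 11.05 and 11.06 with inhaled rCNT. The 4 groups of Zmynd10 did not overlap. It rose by 0.75 (SE 0.077, limma adjusted p = 9.04e-07) after aspiration and by 1.88 (SE 0.084, limma adjusted p = 9.68e-11) after inhalation. Lrrc6, which works with Zmynd10, rose by 0.19 and 0.61 in the same order.

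**Figure D3:**
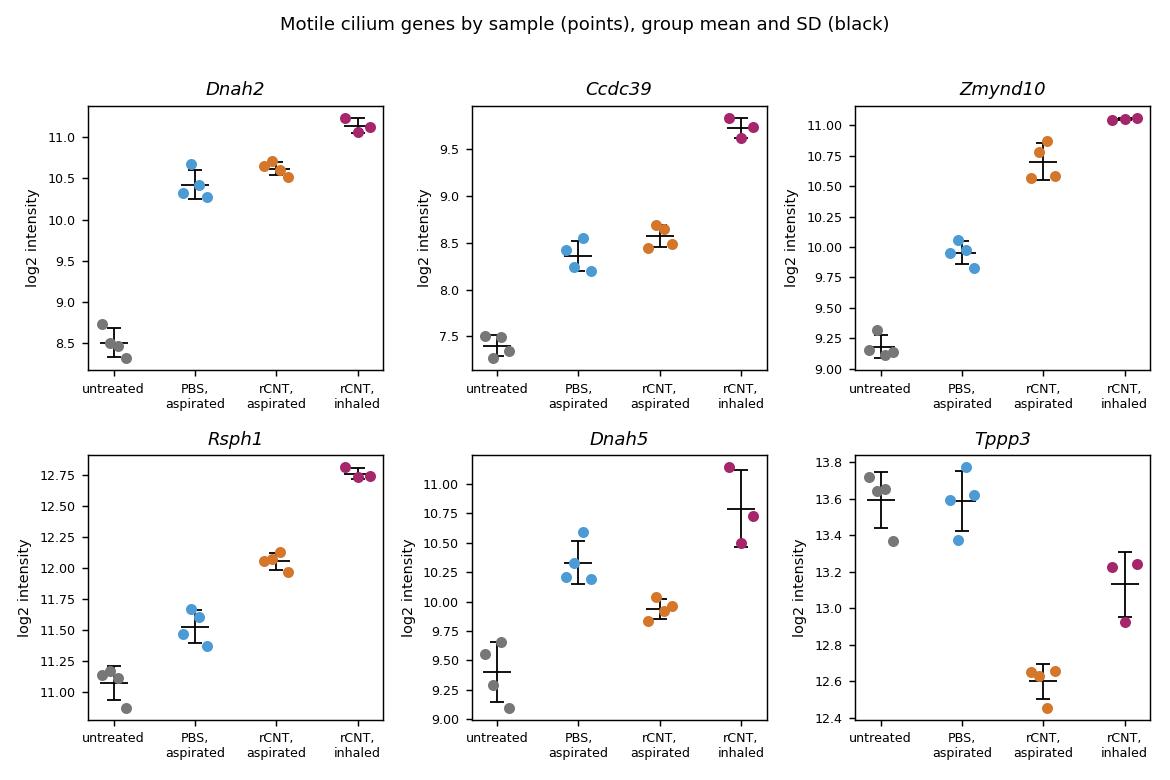
Log2 intensity of 6 members in every sample (points), with group mean and SD in black; each panel has its own axis. Rsph1 and Zmynd10 step up through the 4 groups, Dnah2 and Ccdc39 differ far less between PBS and aspirated rCNT than between untreated and inhaled samples, Dnah5 is lower with aspirated rCNT than with PBS, and Tppp3 is lowest with aspirated rCNT.

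The tektins and microtubule inner proteins line the inside of the doublet wall, and all 7 rose after inhalation, with a median of 1.40. Of these, Cfap45, Cfap52, Tekt1 and Enkur also rose after aspiration. Cfap45 measured 11.03, 10.93, 10.87 and 10.92 in the untreated samples, 11.70, 11.79, 11.78 and 11.70 with PBS, 12.18, 12.37, 12.34 and 12.23 with aspirated rCNT and 12.87, 12.49 and 12.71 with inhaled rCNT (log2 intensity). In Cfap45 the groups stood apart at each step, with 1.74 (SE 0.076, limma adjusted p = 8.75e-11) after inhalation and 0.54 (SE 0.070, limma adjusted p = 1.20e-05) after aspiration. The log2 intensity of Cfap52 was 9.65, 9.76, 9.79 and 9.60 in the untreated samples, 10.29, 10.06, 10.36 and 10.07 in the PBS samples, 10.62, 10.83, 10.69 and 10.73 in the aspirated rCNT samples and 11.13, 10.87 and 11.32 in the inhaled samples. The inhaled samples of Cfap52 were the highest, and the differences were 1.39 (SE 0.092, limma adjusted p = 5.82e-09) and 0.52 (SE 0.085, limma adjusted p = 0.000106). Untreated samples had Tekt1 at a log2 intensity of 10.87, 10.80, 10.85 and 10.93, PBS samples at 11.18, 11.26, 11.25 and 10.92, aspirated rCNT samples at 11.45, 11.73, 11.67 and 11.67 and inhaled samples at 12.41, 12.17 and 12.28. Tekt1 rose by 1.40 (SE 0.080, limma adjusted p = 1.18e-09) and 0.48 (SE 0.074, limma adjusted p = 6.22e-05), and its other probe by 1.34 and 0.46. Enkur rose by 1.41 and 0.27. Cfap53, Tekt2 and Tekt4 rose by 1.45, 1.03 and 0.88 after inhalation and had aspiration differences of 0.16, -0.16 and 0.19, which did not pass.

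Of the other axoneme genes, Cfap43, which with Cfap44 tethers the 2-headed inner arm, had a large inhalation difference on 1 probe only. For Cfap43 the log2 intensities were 8.63, 8.17, 8.12 and 8.10 untreated, 9.91, 9.92, 10.10 and 9.59 with PBS, 9.71, 10.06, 9.84 and 10.01 with aspirated and 10.66, 10.13 and 10.51 with inhaled rCNT. All inhaled samples were above all others, and the aspirated rCNT and PBS samples overlapped. The brightest probe gave 2.13 (SE 0.11, limma adjusted p = 4.38e-10) and the other, dim at 6.38 to 6.66 by group, gave 0.26. Cfap44 rose by 1.01, with 1.26 on its other probe, and Mlf1 rose by 0.81 after inhalation and by 0.24 after aspiration. Log2 intensities of Fam183b were 12.48, 12.32, 12.46 and 12.44 without treatment, 13.01, 13.18, 12.99 and 12.84 with PBS, 12.63, 12.77, 12.74 and 12.75 with aspirated rCNT and 13.72, 13.16 and 13.52 with inhaled rCNT. Fam183b rose by 1.02 (SE 0.099, limma adjusted p = 3.26e-07) after inhalation, and after aspiration its samples lay below the PBS samples, at -0.28 (SE 0.091, limma adjusted p = 0.0173). That fall lost its call with the processed signal, with median centring and without PBS replicate 2, at -0.25, -0.20 and -0.20 (adjusted p = 0.0797, 0.152 and 0.0698).

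Tppp3, a tubulin-binding protein, was the member that went the other way. Tppp3 measured 13.72, 13.64, 13.65 and 13.37 in the untreated samples, 13.59, 13.37, 13.77 and 13.62 with PBS, 12.65, 12.63, 12.46 and 12.66 with aspirated rCNT and 13.23, 12.92 and 13.24 with inhaled rCNT (log2 intensity). Every sample with rCNT was below every sample without it, and the aspirated rCNT samples were the lowest of all. The difference was -0.99 (SE 0.093, limma adjusted p = 3.52e-07) after aspiration and -0.48 (SE 0.10, limma adjusted p = 0.000693) after inhalation, and within slide 3 alone, which held 2 inhaled samples and 1 untreated, it was -0.21 with an adjusted p of 0.222.

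Further probes that passed the filter were available for 13 of the tested members. All 15 such probes had an inhalation difference above 0 and 14 had an unadjusted p below 0.05 in limma. The share of all probes past that unadjusted threshold was not taken. The median of the 15 was 0.64 against 1.21 for the brightest probes of the same genes. The size of the rise in Cfap43, Dnah10 and Wdr78 thus differed by probe, and their direction did not.

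**Figure D4:**
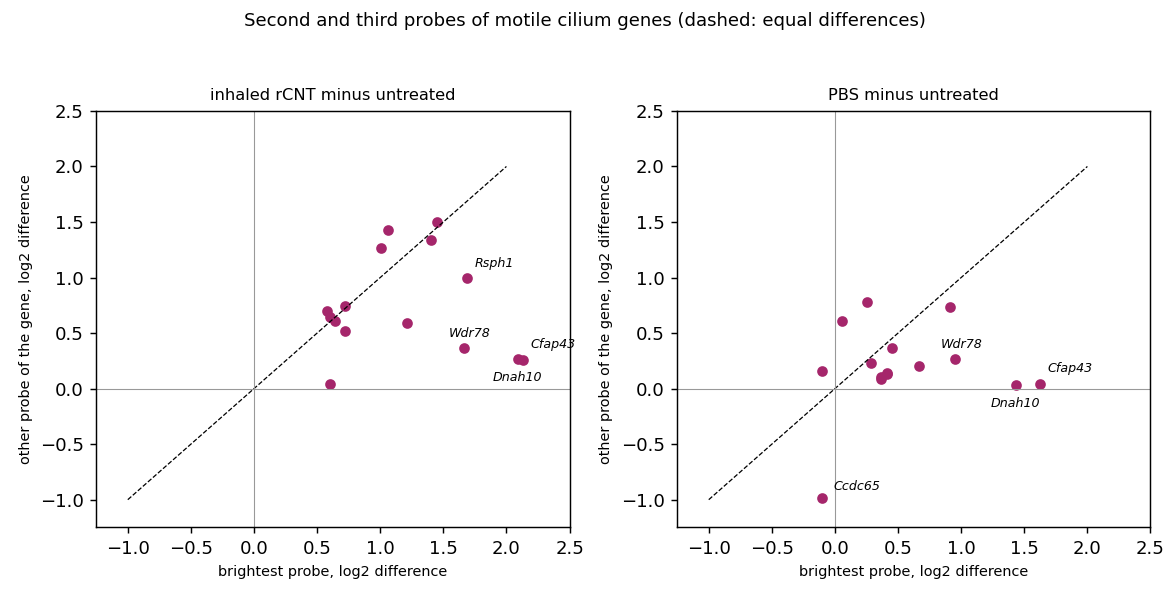
Log2 difference of each further probe of a member (vertical) against that of its brightest probe (horizontal), for inhaled rCNT minus untreated and for PBS minus untreated; the dashed line marks equal values. For Cfap43, Dnah10 and Wdr78 the further probe lies far below the line in both panels, and in the inhalation panel all 15 further probes lie above 0.

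PBS aspiration without particles also went with higher levels of these genes than no treatment. Of the 44 members 31 were higher in the PBS samples, 3 lower and 10 did not pass, against 59.4% of all tested genes called, 26.3% higher and 33.1% lower, and the median was 0.43. Groups did not overlap in 29 members that were higher and 1 that was lower, against 21.8% and 27.5% of all tested genes. It was at least 2-fold in 4 members, against 2.77% of all tested genes. The largest were Dnah2, Cfap43, Dnah10, Dnah6, Wdr78 and Ccdc39, at 1.92, 1.63, 1.43, 1.02, 0.95 and 0.95, but the other probes of Cfap43, Dnah10 and Wdr78 gave 0.040, 0.031 and 0.27. The 3 that were lower were Iqcg, Spef2 and Rsph9, at -0.41, -0.35 and -0.20. Without untreated replicate 3, PBS replicate 1 or PBS replicate 3, 1 member was lower. Aspiration, PBS and slide cannot be told apart in this comparison.

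Set against PBS, the inhaled samples were higher in 40 members, lower in 1 and not past the threshold in 3, against 55.2% of all tested genes called, 27.5% higher and 27.7% lower, with a median of 0.71. Groups did not overlap in 35 members that were higher and 1 that was lower, against 25.7% and 25.3% of all tested genes. The largest differences were those of Ccdc151 at 1.53, Ccdc39 at 1.35, Rsph1 at 1.24, Tekt1 at 1.11, Zmynd10 at 1.10 and Dynlrb2 at 1.04. Of the non-passing members, Hydin, Spag16 and Dnah1 had 0.27, -0.083 and -0.17. With median centring in place of quantile normalisation, which moved the median of all genes to -0.29 here, 18 members were higher and 2 lower. Cfap43, Dnah11, Dnah5, Dnah7a, Fam183b and Tekt2 then turned to values from -0.19 to -0.013 that did not pass. Route and slide cannot be told apart here either.

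Most regulators that start multiciliated cells rose after inhalation. Of 14 genes of this transcription programme 11 rose and 1 fell after inhalation, at a median of 0.72, and 6 rose and 2 fell after aspiration, at a median of 0.15. Over all tested genes the shares were 28.4% and 32.5% after inhalation and 20.6% and 26.5% after aspiration. In PBS against untreated samples 4 of the 14 were higher and 2 lower, at a median of 0.065. There, 26.3% of all tested genes were higher and 33.1% lower. The log2 intensity of Foxj1 was 11.07, 11.01, 11.03 and 11.10 in the untreated samples, 11.22, 11.16, 11.21 and 10.98 in the PBS samples, 11.58, 12.00, 11.89 and 11.96 in the aspirated rCNT samples and 12.78, 12.45 and 12.71 in the inhaled samples. The inhaled samples of Foxj1 were highest, the aspirated rCNT samples next, and the PBS and untreated samples overlapped. Foxj1, the factor that turns on axoneme genes, rose by 1.57 (SE 0.078, limma adjusted p = 2.87e-10) after inhalation and 0.71 (SE 0.072, limma adjusted p = 7.45e-07) after aspiration. Foxn4 and Ccno, which act in cells that are multiplying their centrioles, rose strongly after both. Untreated samples had Foxn4 at a log2 intensity of 7.68, 7.69, 7.71 and 7.86, PBS samples at 8.16, 7.97, 8.30 and 7.93, aspirated rCNT samples at 10.19, 10.38, 10.67 and 9.82 and inhaled samples at 10.87, 11.31 and 10.85. For Ccno the log2 intensities were 9.40, 9.31, 9.30 and 9.42 untreated, 9.53, 9.17, 9.62 and 9.26 with PBS, 11.13, 11.57, 11.73 and 11.17 with aspirated and 12.06, 12.05 and 11.93 with inhaled rCNT. Neither rCNT group overlapped with either control group in Foxn4 or Ccno. The rises were 3.29 (SE 0.16, limma adjusted p = 2.32e-10) and 2.17 (SE 0.15, limma adjusted p = 8.61e-09) in Foxn4, and 2.64 (SE 0.13, limma adjusted p = 2.74e-10) and 2.01 (SE 0.12, limma adjusted p = 2.10e-09) in Ccno, in the order inhalation and aspiration.

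Of the remaining regulators, named after their values were seen, Myb, Gmnc and Mcidas rose by 2.03, 1.47 and 0.83 after inhalation. After aspiration Myb rose by 0.55, Gmnc had 0.12 and did not pass, and Mcidas fell by 0.39 on the log2 scale. The X-box readers Rfx1, Rfx2 and Rfx3 rose by 0.48, 0.32 and 0.62 after inhalation, and after aspiration Rfx1 fell by 0.19 while Rfx2 and Rfx3 did not pass, at -0.047 and 0.069. E2f5 fell by 0.49 after inhalation.

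Centriole and basal body genes supply the bases from which cilia grow, and 14 of 16 rose after inhalation and 8 rose and 2 fell after aspiration. Of all tested genes 28.4% rose after inhalation, and 20.6% rose and 26.5% fell after aspiration. In PBS against untreated samples 9 of the 16 were higher and 3 lower, against 26.3% and 33.1% of all tested genes. Log2 intensities of Deup1 were 9.45, 9.22, 9.22 and 9.49 without treatment, 10.22, 9.85, 10.15 and 9.70 with PBS, 11.94, 12.50, 12.28 and 11.97 with aspirated rCNT and 12.34, 12.36 and 12.22 with inhaled rCNT. Deup1, of the deuterosome on which new centrioles form, overlapped between aspirated and inhaled rCNT, and both stood above all control samples. Its rises were 2.93 (SE 0.12, limma adjusted p = 5.64e-11) and 2.19 (SE 0.11, limma adjusted p = 3.64e-10). Ccdc78 measured 8.19, 8.28, 8.02 and 8.24 in the untreated samples, 9.47, 9.46, 9.43 and 9.14 with PBS, 9.42, 9.58, 9.49 and 9.57 with aspirated rCNT and 10.68, 10.15 and 10.59 with inhaled rCNT (log2 intensity). Ccdc78, also of the deuterosome, had 2.26 (SE 0.094, limma adjusted p = 5.09e-11) after inhalation and 0.15 (SE 0.086, limma adjusted p = 0.185) after aspiration, where the PBS and rCNT samples overlapped. The centriole list as a whole had a median of 0.76 after inhalation and 0.18 after aspiration.

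**Figure D5:**
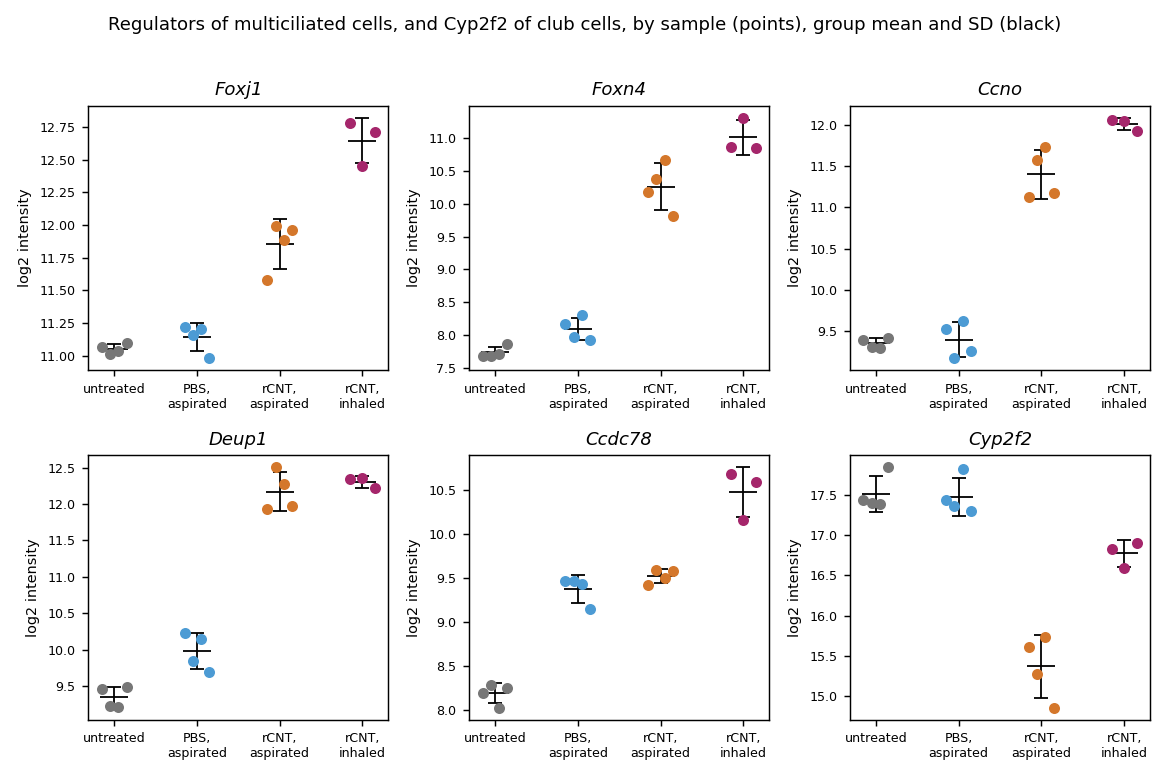
Log2 intensity in every sample (points) of 5 regulators of multiciliated cells and of Cyp2f2, a club cell gene, with group mean and SD in black; each panel has its own axis. Foxn4, Ccno and Deup1 stand far above both controls in both rCNT groups, Foxj1 steps up from aspiration to inhalation, Ccdc78 is nearly level between PBS and aspirated rCNT, and Cyp2f2 is lowest with aspirated rCNT.

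Other genes of the cilium rose with inhalation too. For comparison with the counts here, 28.4% of all tested genes were higher and 32.5% lower after inhalation. After aspiration the shares were 20.6% and 26.5%. Of 11 further dynein assembly factors 9 rose after inhalation (median 0.62), led by Dnaaf5 at 1.35 and Dnaaf3 at 1.18, and 7 rose and 1 fell after aspiration (median 0.28), with Dnaaf5 at 0.22 and Dnaaf3 at 0.43. Of 30 further axoneme genes 24 rose and 2 fell after inhalation (median 0.62), with Cfap69 at 2.30 and Mns1 at 1.87, and 10 rose and 6 fell after aspiration (median 0.15), where Mns1 rose by 0.59 and Cfap69 did not pass, at 0.15. The list of tubulin-modifying enzymes also held the tubulins Tube1 and Tubd1. Of its 12 tested genes 10 rose after inhalation (median 0.85). Ttll6, which adds glutamate chains to tubulin, rose by 2.56, and Ttll3, which adds glycine, by 2.32. After aspiration 1 of the 12 rose (median -0.014), and Ttll6 and Ttll3 did not pass, at 0.0052 and -0.17. Genes of intraflagellar transport and the BBSome, which serve nearly all cilia, moved less. Of 42 of these 24 rose and 2 fell after inhalation (median 0.25), and 4 rose and 9 fell after aspiration (median -0.077). Wdr60 rose by 1.497 and Ift74 by 0.88 after inhalation, and after aspiration Ift74 rose by 0.28 while Wdr60 did not pass, at -0.095. With median centring 13 rose and 7 fell after inhalation, at a median of 0.026. In PBS against untreated samples Ttll6, Ttll3, Cfap69 and Wdr60 were higher by 1.79, 1.67, 1.37 and 1.15. There 8 of the 12 genes of the tubulin list were higher and 0 lower, and 20 of the 42 transport genes were higher and 5 lower. Of the 30 further axoneme genes 9 were higher and 3 lower, and of the 11 assembly factors 6 and 3. The shares of all tested genes were 26.3% and 33.1%.

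Further markers of ciliated cells and those of other cells were read beside the set. Over all tested genes 28.4% were higher and 32.5% lower after inhalation, and 20.6% and 26.5% after aspiration. Of 21 other ciliated cell markers, of which Foxj1 is also in the transcription list, 18 rose after inhalation (median 0.97), while 5 rose and 6 fell after aspiration (median 0.0079). Ccdc17 rose by 1.77 after inhalation and fell by 0.23 after aspiration. Club cells are the secretory neighbours of ciliated cells. All 7 tested club markers fell after aspiration (median -1.20), and 1 rose and 2 fell after inhalation (median 0.025). Cyp2f2, a detoxifying enzyme of club cells, was -2.10 (SE 0.17, limma adjusted p = 5.79e-08) after aspiration and -0.74 (SE 0.18, limma adjusted p = 0.0023) after inhalation. Ces1d fell by 1.08 and by 0.46 in the same order. The summed club markers were 776745 to 973246 with PBS, 258206 to 464984 with aspirated rCNT, 797453 to 945841 in untreated and 664323 to 783049 in inhaled samples. Of 11 goblet markers 10 rose and 1 fell after aspiration (median 1.48), and 10 rose after inhalation (median 1.96). In PBS against untreated samples 7 of the 11 were higher and 0 lower (median 1.01), against 26.3% and 33.1% of all tested genes. Agr2 rose by 4.05 after aspiration and 3.87 after inhalation, and the mucin Muc5b by 1.59 and 2.66 in the same order. Their part in the members' result was not tested.

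Beside the counts below, 20.6% of all tested genes were higher and 26.5% lower after aspiration, and 28.4% and 32.5% after inhalation. Of 7 macrophage markers 6 rose and 1 fell after aspiration (median 1.29) and 2 rose and 2 fell after inhalation (median 0.011). Mrc1 rose by 1.09 and 0.60, and Adgre1 rose by 1.29 after aspiration and fell by 0.40 after inhalation. Endothelial markers fell in 9 of 10 after aspiration and 10 of 10 after inhalation, with medians of -0.76 and -0.72, among them Emcn at -0.43 and -1.39 and Eng at -0.84 and -0.73. Of 8 alveolar type 1 markers 7 fell and 1 rose after aspiration and 3 fell after inhalation, with Igfbp2 at -0.58 and -0.65 and Aqp5 at -0.44 and -0.42. Of 9 alveolar type 2 markers 3 fell and 1 rose after aspiration and 4 fell and 1 rose after inhalation. Abca3 fell by 0.51 and by 0.40, and Napsa fell by 0.95 after inhalation and did not pass after aspiration, at -0.050. Of 6 basal markers 2 rose and 2 fell after aspiration and 1 rose and 1 fell after inhalation: Dapl1 had -0.33 and -1.85, and Trp63 -0.24 and 0.35, all past the threshold. Tissue that may enter with the large airways was read as well: of 5 tested airway cartilage markers 1 rose and 1 fell after inhalation (median -0.059), of 7 smooth muscle markers 1 rose and 2 fell (median -0.063), and of 2 tested oesophagus markers 1 fell. The differences after inhalation were -0.21 in Col9a2, 0.36 in Col11a2, -0.65 in Des, 0.62 in Myh11, -0.67 in Krt13 and, not past the threshold, 0.017 in Sprr1a, which rose by 1.74 after aspiration. Cartilage markers summed to 488 to 525 in untreated and 495 to 526 in inhaled samples.

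Nuclear noncoding RNAs moved in parallel with the inhalation and PBS results. Of 7 tested 6 were higher in inhaled than in untreated samples (median 3.96), 6 were higher and 1 lower in PBS than in untreated samples (median 2.33), and 3 were lower after aspiration (median -0.057). The matching shares of all tested genes were 28.4%, then 26.3% and 33.1%, then 26.5%. Rnu1b6 and Rnu2-10 were higher by 3.96 and 4.14 in inhaled and by 3.14 and 2.33 in PBS than in untreated samples. Summed, they lay at 8232 to 10131 in untreated, 75924 to 100370 in PBS, 59857 to 65157 in aspirated rCNT and 116561 to 129415 in inhaled samples, without overlap between groups. Their part in the members' result was not tested.

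The inhaled and untreated samples shared slides 2 and 3, and on each of them 1 of the groups had a lone sample, which is assumed to vary like the others. Within slide 2, with 1 inhaled and 3 untreated samples, 41 members were higher and 1 lower, at a median of 1.28, against 23.2% and 25.6% of all tested genes. Within slide 3, with 2 inhaled samples and 1 untreated, 41 were higher and 0 lower, at a median of 1.15, against 20% and 22.6%. Median centring left 41 members higher and 1 lower in the inhalation comparison, with a median of 0.83, or 0.97 above the median of all genes under the same centring.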

How the data were processed

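Members and lists were chosen with earlier results of these data known. Per the file headers, the authors scanned 14 arrays on 3 slides and extracted each spot with Agilent Feature Extraction 11.0.1.1 (array design on build mm9). The deposited intensity values used were the median brightness of a spot and of its surroundings, in the channel that held the sample. Each of the 15 samples is 1 channel, in Cy3 or Cy5, and inhaled rCNT replicate 2 shares an array with untreated replicate 4. The processed intensity, from which, per the file headers, the authors' software had removed background and dye bias, and the deposited series table, taken as log2 although its base, background correction and centring are not stated, served as alternatives. The columns of that table had medians of 6.58 to 6.59.

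Background was handled by normexp with an offset of 50, and log2 values were brought to common quantiles across the 15 channels (R 4.3.3, limma 3.58.1). Of 55681 probes 34271 passed the filter. Of 29123 probes with a RefSeq accession 27656 were named, for 20972 genes, through a GRCm38.p6 table used for names and promoters only. limma was fitted over all 4 groups with a dye term, two-sided, with Benjamini-Hochberg adjustment over 25251 genes and a threshold of 0.05, and was tested on simulated data. Unadjusted p-values of further probes come from the same fit over probes. Values of every sample are given for the 6 members with the largest called difference in each of 5 comparisons, for members called against the majority after aspiration or inhalation, and for the 4 smallest inhalation differences. From each further list the 2 genes with the smallest inhalation p, and Foxj1, are named. The alternatives were the processed signal, median centring, cyclic loess, other probe filters, the mean over probes, the series table and no dye term. Others were trend and robust variance, array weights, blocks for slide and replicate number, and leaving out each sample.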

Additional observations from a re-analysis of the deposited data

Results flagged for a closer look

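Of 63 groups of 4 samples tested among the 21 members with values for every sample, 5 held a sample whose gap to its nearest neighbour, as a share of the group's range, exceeded Dixon's critical value, and chance flags about 1 in 20 such groups. PBS replicate 4 was low in Ak8, at a log2 intensity of 8.92 against 9.26 to 9.32 in the others. PBS replicate 2 was high in Ccdc151, at 9.06 against 8.91 to 8.92. Untreated replicate 1, whose title names a PBS aspiration, was high in Cfap43, at 8.63 against 8.10 to 8.17. Aspirated rCNT replicate 4 was low in Dnah10, at 10.70 against 10.94 to 10.98, and aspirated rCNT replicate 3 was low in Tppp3, at 12.46 against 12.63 to 12.66.

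The effect of inhalation against its control differed from that of aspiration against its own control in 42 of 44 members, by the interaction contrast of limma. The 6 largest differences of the effects, on the log2 scale, were 2.44 in Dnah2, 2.11 in Cfap43, 2.09 in Ccdc39, 2.06 in Dnah6, 1.88 in Dnah10 and 1.76 in Dnah5. Their limma adjusted p-values ran from 2e-09 in Ccdc39 to 1.87e-06 in Dnah5. These values are of the brightest probes, and the other probes of Cfap43 and Dnah10 that passed the filter gave 0.30 and 0.23. Route, slide and kind of control cannot be told apart in these differences.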

How the results depend on the processing

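Among all results and alternatives run, 391 counts and medians over the members stayed close to the reported value and 20 moved, while of the single members 1054 kept their direction and call, 16 lost the call and 2 gained it, and none reversed. Not counted there are sign changes with median centring in the difference of the effects of Tppp3, from 0.51 to -0.027, and for inhaled minus PBS in Cfap43, Dnah11, Dnah5, Dnah7a, Fam183b and Tekt2, to values from -0.19 to -0.013, with no call. With the processed signal the members' median was 1.29 for inhalation and 1.20 for the difference of the effects, and 1 member was lower in PBS than in untreated samples. Median centring gave medians of 0.83 for inhalation, 0.77 for the difference, 0.62 for PBS minus untreated, with 0 members lower, and 0.21 for inhaled minus PBS, with 18 higher and 2 lower. It also moved the share of higher genes among all called genes from 46.6% to 27.5% for inhalation, from 50.1% to 30.6% for the difference, from 44.3% to 59.2% for PBS minus untreated and from 49.9% to 21.1% for inhaled minus PBS. Cyclic loess and array weights each gave 22 members higher after aspiration. With the slide as a random block (correlation 0.108) 1 member was lower in PBS than in untreated samples, and within slide 2 the inhalation median was 1.28, while within slide 3 0 members were lower. The cause was not tested. Over all 15 ways of leaving out 1 sample, 10 to 17 members were higher and 4 to 7 lower after aspiration (median 0.11 to 0.16). For inhalation 41 to 42 were higher and 1 lower (median 0.99 to 1.25, the highest without inhaled replicate 2), for the difference 41 to 42 were higher (0.92 to 1.16), for PBS minus untreated 29 to 33 were higher and 1 to 3 lower (0.36 to 0.50), and for inhaled minus PBS 36 to 41 were higher and 1 lower (0.65 to 0.76).

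Replicate numbers did not pair the samples: deviations from the group means of same-numbered samples correlated at -0.14 to 0.29 in the aspiration groups and -0.091 to 0.13 in the inhalation groups, and 2 of 4 and 1 of 3 exposed samples correlated best with the control of their own number. With the replicate number as a block, 15 members were higher and 6 lower after aspiration (median 0.15), 41 higher and 1 lower after inhalation (1.04), and over all genes 11340 in place of 11906 and 14641 in place of 15364 were called. The array as a random block could not be fitted, since 1 array alone holds a pair of samples.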
